A study of Gallus gallus with 9 samples.

Results

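In the liver of the chicken, 55 protein-coding genes were higher at 5 weeks than at embryonic day 13 and higher again at 42 weeks than at 5 weeks. They were chosen among the 11512 genes that reached 1 FPKM (a read level corrected for transcript length and for the number of mapped fragments) in at least 3 of 9 libraries, out of 13949 genes listed. A gene was chosen when its mean log2(FPKM + 1) differed by at least 1 at the first step, from embryonic day 13 to 5 weeks, and by at least 1 at the second step, from 5 to 42 weeks. The values of all 9 libraries thus chose the genes, and the size of both steps is given below as a description without a test. The genes make up 0.478% of those that passed the filter.

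Livers were taken from Gallus gallus embryos at day 13 of incubation, from birds aged 5 weeks, a stage the labels call rapid growth, and from birds aged 42 weeks, labelled adult and aged. Each age had 3 libraries described as biological replicates, and no treatment, genotype or pooling is named. The sources used here do not give breed, sex, flock or sequencing batch, and a batch and the age cannot be told apart. As these are bulk samples, a change in the number of cells of one type and a change in RNA per cell cannot be told apart.

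The liver of the chick embryo grows while the embryo lives on the lipid of the yolk. After hatching the bird eats a diet rich in carbohydrate, and its liver becomes the main site of fatty acid synthesis. In the sexually mature hen, estrogen makes the liver produce the lipoproteins and other proteins that are carried to the yolk. Whether the 55 genes belong to any of these processes could not be read from the data. The deposited table gives Ensembl gene identifiers without names, and 0 of them matched the reference table of chicken genes. Liver markers could not be looked up for the same reason, and the labelled tissue was not checked. The first 2 genes by the smaller of their steps are named by a rule, and every other gene named below was picked after its values were seen.

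The 55 genes were mostly low in the embryo, 31 of them under 1 FPKM, and differed widely in level at 42 weeks. The median over the genes of the mean FPKM was 0.731 in the embryo, 7.85 at 5 weeks and 40.2 at 42 weeks. For all tested genes it was 8.42, 5.79 and 5.25. The embryonic median was 1.98 for genes with a first step of at least 1 and a second within 1. For genes with a first step within 1 and a second of at least 1 it was 2.90. The embryonic level is part of what chose the 55 genes. At day 13 the mean was under 1 FPKM for 31 genes, 1 to 10 FPKM for 17 and 10 to 100 FPKM for 7. At 5 weeks 28 genes had 1 to 10 FPKM, 22 had 10 to 100 and 5 had 100 to 1000. At 42 weeks 7 genes remained under 10 FPKM, 28 had 10 to 100, 17 had 100 to 1000 and 3 had at least 1000 FPKM. The genes therefore spanned from 5.21 to 36990 FPKM at the last age, whereas none had a mean above 58.3 FPKM in the embryo. In all 9 libraries 20 of the genes reached 1 FPKM, 24 were under it in every embryonic library, and 4 reached it in fewer than 3 of the embryonic and 5-week libraries together, so that they needed the 42-week libraries to pass the filter.

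**Figure D1:**
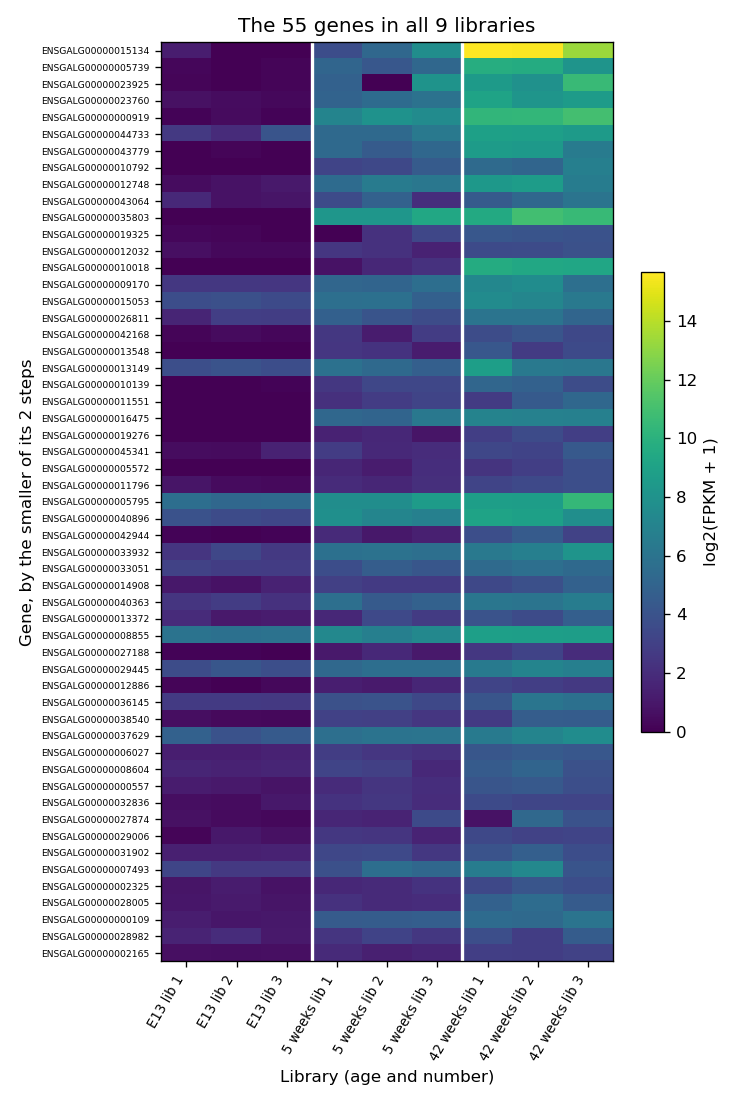
Values of log2(FPKM + 1) of the 55 genes (rows, ordered by the smaller of their 2 steps, largest at the top) in the 9 libraries (columns), with white lines between ages. The embryonic columns are dark for most genes, and the first row, ENSGALG00000015134, reaches the highest values, at 42 weeks.

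The first step had a median of 1.68 on the log2(FPKM + 1) scale, with quartiles of 1.32 and 2.93 and a highest value of 8.63. The second step had a median of 1.54, with quartiles of 1.29 and 1.82 and a highest value of 9.30. For all tested genes the medians were -0.46 and -0.17 on the deposited scale, and after median scaling they are near 0 by construction. The first step was the larger in 33 genes and the second in 22. Across genes the first step made up a median of 54.8% of the whole difference between day 13 and 42 weeks, from 16.7% to 83.5%. Both steps were under 2 in 29 genes, the first alone reached 2 in 14, the second alone in 4, and both reached 2 in 8.

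**Figure D2:**
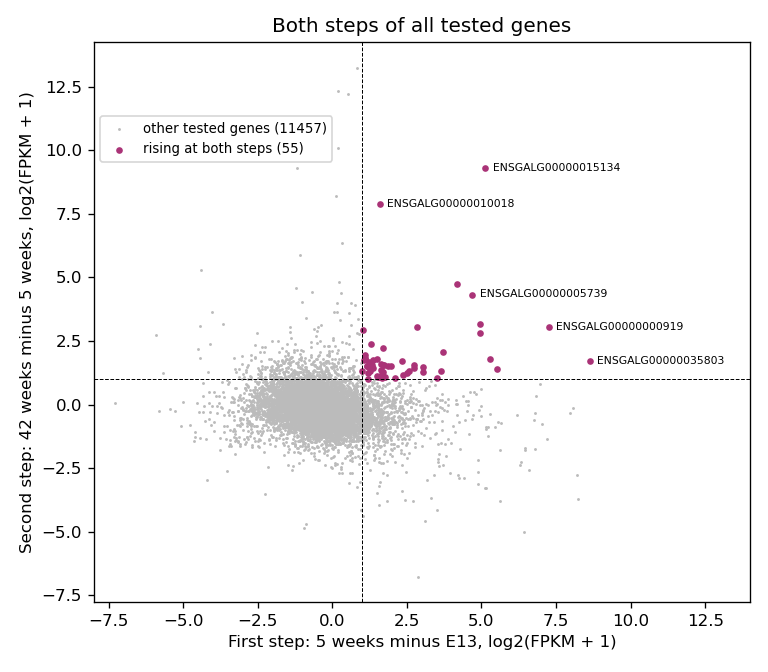
First step (5 weeks minus embryonic day 13, horizontal) against second step (42 weeks minus 5 weeks, vertical) on the log2(FPKM + 1) scale for the 55 genes (purple) and the other tested genes (grey), with dashed lines at the threshold of 1. Most of the 55 lie close to the corner where the lines cross, and few reach far along either axis.

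Of the 848 genes with a first step of at least 1, 6.49% were among the 55, where 4.52% of all tested genes had a second step of at least 1. Of the 520 genes with a second step of at least 1, 10.6% were among the 55, where 7.37% of all tested genes had a first step of at least 1. After a first step of at least 1, 595 genes stayed within 1 of their 5-week level and 198 were lower by 1 or more at 42 weeks. A further 253 genes stayed within 1 at the first step and were higher by at least 1 at the second. For short, the 595 genes are said below to rise at the first step alone and the 253 at the second step alone. Their other step was within 1 and could still be a rise. Both steps share the 5-week libraries, so a high 5-week value raises the first step and lowers the second.

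ENSGALG00000015134 had the largest smaller step of all 55 genes. It had 1.39 FPKM in the first embryonic library and was listed at 0 in the other two. At 5 weeks it had 12.2, 36.2 and 207 FPKM, and at 42 weeks 52140, 48680 and 10140 FPKM. No libraries overlapped between ages, and the steps were 5.13 and 9.30 on the log2 scale. Its 5-week mean of 85.3 ± 106 FPKM (SD, n = 3) rested on the third library, without which the first step was 4.05 and the second 10.38.

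ENSGALG00000005739 followed, with steps of 4.69 and 4.31 that were nearly equal in size. It was listed at 0.198, 0 and 0.172 FPKM in the embryonic libraries and had 33.2, 18.2 and 36.1 FPKM at 5 weeks. At 42 weeks it had 857, 799 and 278 FPKM, so the third library was the lowest, as it was for ENSGALG00000015134. The mean at 42 weeks was 22.1 times that at 5 weeks.

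In all, 5 genes had both steps at 3 or more, and the other 3 were ENSGALG00000023925, ENSGALG00000023760 and ENSGALG00000000919. ENSGALG00000000919 had 0.135, 0.385 and 0.128 FPKM at day 13, 132, 253 and 186 FPKM at 5 weeks, and 1257, 1351 and 2057 FPKM at 42 weeks. Its 3 ages were well apart, and the third 42-week library was here the highest. ENSGALG00000023760 had 0.452 ± 0.198, 44.6 ± 14.1 and 405 ± 131 FPKM at the 3 ages (SD, n = 3), steps of 4.94 and 3.15.

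ENSGALG00000023925 had means as far apart, but its libraries disagreed. It had 0.153, 0 and 0.137 FPKM in the embryo, and 27.8, 0 and 265 FPKM in the 5-week libraries. At 42 weeks it had 375, 244 and 1585 FPKM. The second 5-week library was thus listed at 0 like the second embryonic one, and the third 5-week library lay above the lowest 42-week library. It was the only gene of the 55 whose libraries overlapped at both steps.

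**Figure D3:**
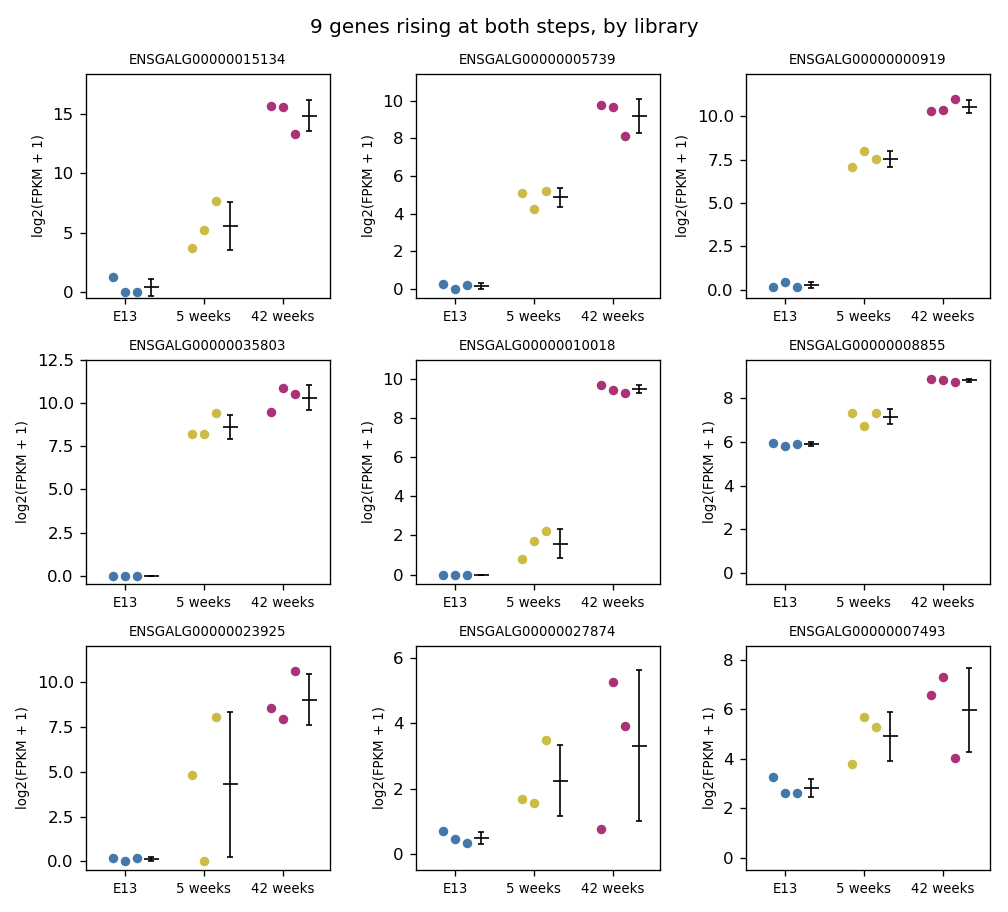
Values of log2(FPKM + 1) of 9 of the 55 genes in each library at embryonic day 13 (blue), 5 weeks (yellow) and 42 weeks (purple), with the mean and SD of the 3 libraries in black beside them. The upper 6 genes have ages that do not overlap, while ENSGALG00000023925, ENSGALG00000027874 and ENSGALG00000007493 have at least 1 library that lies among those of another age.

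Some genes had most of their difference at a single step. ENSGALG00000035803 had values of 0 throughout the embryonic group, then 299, 301 and 681 FPKM at 5 weeks and 733, 1928 and 1501 FPKM at 42 weeks. Its first step of 8.63 was the largest of the 55 and made up 83.5% of the whole, and its 42-week mean was 3.25 times the 5-week mean. ENSGALG00000010018 lay at the other end. It too was listed at 0 in the embryo, had 0.736, 2.33 and 3.65 FPKM at 5 weeks, and then 813, 677 and 621 FPKM at 42 weeks. Its first step of 1.58 made up 16.7% of the whole and its second was 7.87. The 42-week mean was 314 times the 5-week mean, with the 3 libraries of the last age close together.

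Other genes were already present in the embryo. ENSGALG00000008855 had the highest embryonic level, with 61.0, 55.1 and 58.8 FPKM, then 159, 106 and 159 FPKM at 5 weeks and 465, 441 and 418 FPKM at 42 weeks. Its steps were 1.24 and 1.66, and no libraries overlapped between ages. ENSGALG00000005795 had 42.0 ± 6.56 FPKM in the embryo and 264 ± 105 FPKM at 5 weeks (SD, n = 3). At 42 weeks it had 438, 416 and 1356 FPKM, and the third library stood well above the others. Its steps were 2.56 and 1.32. Over the 38 genes above 0 in all embryonic libraries, the 5-week mean was 2.42 to 882 times the embryonic mean, with a median of 5.17. Over all 55 genes the 42-week mean was 2.15 to 434 times the 5-week mean, with a median of 3.42. These are ratios of FPKM, and for genes with low FPKM they exceed the ratios of FPKM + 1 that the log2 steps stand for.

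In 8 of the 55 genes the value was 0 in all 3 embryonic libraries, and in 17 in at least 1 of them. In this table a 0 stands for any value below 0.1 FPKM. The 8 genes had mean levels of 1.67 to 427 FPKM at 5 weeks and 7.68 to 1388 FPKM at 42 weeks. Genes at 0 in the whole embryonic group were 14.5% of the 55 and 0.599% of all tested genes. They were 6.72% of the genes that rose at the first step alone and 3.16% of those that rose at the second step alone. No test was made of these shares, because the embryonic level is part of what chose the genes. The table holds genes above 0 in 5 or more libraries, so a gene present at 42 weeks alone is not in it.

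At embryonic day 13 against 5 weeks, 52 of the 55 genes had libraries that did not overlap, where 16.4% of all tested genes had higher, non-overlapping libraries at 5 weeks. The exceptions were ENSGALG00000023925, ENSGALG00000019325 and ENSGALG00000013372. ENSGALG00000019325 was listed at 0 in the first 5-week library against 3.68 and 9.02 FPKM in the others, with 0.230, 0.148 and 0 FPKM at day 13. ENSGALG00000013372 had 2.78 FPKM in the first embryonic library and 2.39 FPKM in the first 5-week library, so these crossed narrowly. From 5 to 42 weeks 47 of the 55 did not overlap, beside 13.5% of all tested genes, and 45 kept all 9 libraries in the order of the ages, beside 1.36%. The rule used these same libraries, and nothing is read from the excess over the background.

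ENSGALG00000027874 and ENSGALG00000007493 were among the 8 genes that overlapped at the second step. ENSGALG00000027874 had 0.620, 0.369 and 0.250 FPKM in the embryo, 2.21, 1.95 and 10.2 FPKM at 5 weeks, and 0.691, 37.6 and 14.2 FPKM at 42 weeks. Its first 42-week library was thus near the embryonic level. ENSGALG00000007493 had 12.9, 49.7 and 37.3 FPKM at 5 weeks and 92.9, 156 and 15.5 FPKM at 42 weeks, where the third library fell among those of 5 weeks. For both genes the second step of the means, 1.07 and 1.06, was within the spread of the libraries.

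A linear model of all 9 libraries (limma, Benjamini-Hochberg adjustment over all tested genes, adjusted p under 0.05 and a log2 difference of at least 1) called 54 of the 55 higher at 5 weeks than at day 13. It called 7.14% of all tested genes higher in that comparison. The exception was ENSGALG00000027874. Between 5 and 42 weeks it called 49 of the 55, with 4.32% of all tested genes, and across the whole interval all 55, with 6.86%. The same 49 genes, 0.426% of those tested, were called at both steps. No gene outside the 55 could be, because a call needs the same difference of at least 1 at each step. Since the rule selected on these contrasts, the calls describe the genes and are no independent evidence. The 6 genes not called at the second step all had libraries that overlapped there. ENSGALG00000023925, with an SD of 4.05 at 5 weeks on the log2(FPKM + 1) scale, and ENSGALG00000040896 overlapped there too but were called. The model gave each gene a single spread for all ages, although the 55 genes varied least among embryonic libraries (median SD 0.16, then 0.49 and 0.57). Fitted to the compared ages alone, it called 55 of the 55 at the first step and 46 at the second. Among all tested genes it then called 841 and 475. Whether the shared spread accounts for the calls of single genes was not tested.

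The rule was also applied with 1 library left out, and the genes so chosen were looked up in that library. The left-out value had no part in the choice, but the mean of the neighbouring age, against which it is set, did. A gap from all tested genes is therefore partly fixed by the choice and is given as a description. Without 1 of the embryonic libraries, 53 to 59 genes were chosen, and all of them lay lower in the left-out embryonic library than at 5 weeks. Of all tested genes 26.8% to 31.9% did so. The left-out library lay lower by at least 1 for 88.1% to 94.4% of the genes chosen, where 7.39% to 8.29% of all tested genes did so. Without 1 of the 5-week libraries 49 to 63 genes were chosen. Of these, 33 of 49, 33 of 61 and 29 of 63 had both steps at 1 or more when the first, the second or the third library, left out in turn, stood for 5 weeks. Of all tested genes 0.612%, 0.412% and 0.376% did so, and the means of both other ages had entered the choice.

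The left-out libraries differed more at 42 weeks. The first was higher than the 5-week mean for 54 of 58 genes chosen without it, the second for 55 of 57 and the third for 46 of 65. A step of at least 1 was kept by 36, 42 and 34 of these genes, where 3.50%, 5.72% and 7.51% of all tested genes had one. The median second step of the 65 genes chosen without the third library was 1.61 in the libraries that chose them and 1.16 in the third. Among all tested genes 26.6%, 36.3% and 53.6% were above the 5-week mean in the first, the second and the third library, beside 93.1%, 96.5% and 70.8% of the chosen genes. Under these 9 omissions 30 of the 55 genes were always chosen, 18 of them among the 19 genes whose smaller step was at least 1.5.

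In the third 42-week library the 55 genes lay to both sides of the other libraries. It was the lowest of the 3 for 27 of the 55 genes and the highest for 18. Among all tested genes it was the lowest for 11.9% and the highest for 71.4%. It lay at least 1 log2 unit below the mean of the other 2 for 11 of the 55 genes and at least 1 above it for 10, from -2.88 for ENSGALG00000007493 to 2.38 for ENSGALG00000023925. Of the 11512 tested genes, 203 lay below and 906 above by that much. In all 38.2% of the 55 genes were off by 1 or more, beside 9.63% of all tested genes. The share was 40.8% for the genes that rose at the first step alone and 28.1% for those that rose at the second step alone. After all libraries were shifted to the same median, the third library was lowest for 32 of the 55 and highest for 16, against 39.8% and 36.8% of all tested genes. After that shift it lay at least 1 below for 16 genes and at least 1 above for 5, beside 371 and 323 of the 11512 tested genes. Among the 253 genes that rose at the second step alone the counts were 79 and 13. Among the 595 that rose at the first step alone they were 47 and 91.

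The same counts follow, with no test of a difference, for the genes that rose at the first step alone and at the second step alone. The third 42-week library was the lowest for 13.6% of the 595 former genes and for 46.6% of the 253 latter ones, beside 49.1% of the 55. After the shift to a common median these shares were 25.9%, 66.0% and 58.2%. The 42-week values are part of the choice of all 3 sets.

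**Figure D4:**
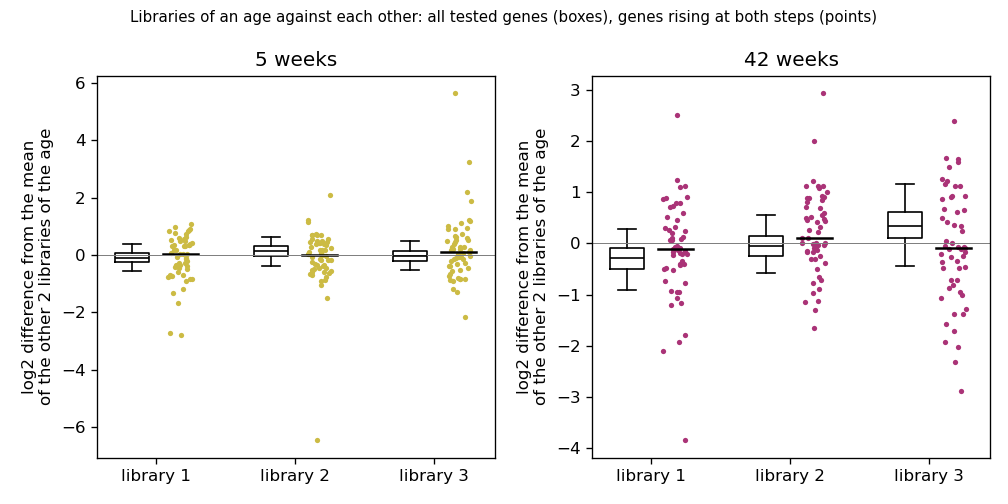
Difference of each library from the mean of the other 2 libraries of its age, in log2(FPKM + 1), at 5 weeks (left) and 42 weeks (right), for all tested genes (boxes with median and quartiles, whiskers at the 5th and 95th percentiles) and for the 55 genes (points, with their median as a bar). In the third 42-week library the box lies above 0, with a median of 0.34, while the 55 genes spread to both sides around a median of -0.09.

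Of the 20 genes among the 55 with a mean of at least 100 FPKM at 42 weeks, the third library was lower by 1 or more in 8 and higher by 1 or more in 3. Of the 412 tested genes at that level the shares were 8.74% and 19.2%, and the third library is part of the mean that set the level. ENSGALG00000043779 had 380, 350 and 89.4 FPKM in the 42-week libraries, against 32.7 ± 9.44 FPKM at 5 weeks (SD, n = 3), so the third library lay between the ages. ENSGALG00000012748 had 325, 412 and 95.1 FPKM, against 43.3, 91.1 and 72.7 FPKM at 5 weeks, and the third library barely exceeded the highest of these. ENSGALG00000033932 went the other way, with 81.0, 105 and 278 FPKM at 42 weeks and 54.7 ± 3.79 at 5 weeks.

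The spread of the 55 genes was wide after hatching. Their median SD between libraries was 0.16 on the log2(FPKM + 1) scale at day 13, 0.49 at 5 weeks and 0.57 at 42 weeks, while for all tested genes it was 0.15, 0.19 and 0.29. An SD of at least 1 was found for 1 gene at day 13, for 5 at 5 weeks and for 11 at 42 weeks. At day 13, 31 of the 55 genes had a mean under 1 FPKM, where this scale compresses differences. All tested genes had a similar SD at that age with a median level of 8.42 FPKM, and a cause of the lower embryonic SD was not tested. At the later ages the genes that rose at the first step alone had median SDs of 0.29 and 0.56. Those that rose at the second step alone had 0.21 and 0.45.

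Together the 55 genes held a larger part of the summed mRNA FPKM at each later age. The rule chose them for a rise at both steps, so this direction was largely fixed in advance. The shares are given as a description. Their share was 0.0443% ± 0.0021 in the embryo, 0.418% ± 0.109 in the 5-week birds and 11.1% ± 5.8 in the 42-week birds (SD, n = 3). In the single 42-week libraries the share was 15.2%, 13.6% and 4.43%, of which ENSGALG00000015134 alone held 12.9%, 11.4% and 2.15%. Without this gene the other 54 held 0.0442% ± 0.0020, 0.402% ± 0.089 and 2.27% ± 0.008 at the 3 ages. Their share of this total, which still counts ENSGALG00000015134, was nearly the same in the 42-week libraries. The total changes with that gene, so the near equality does not show an unchanged level of the 54 genes. Single genes among them moved to both sides in the third library.

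**Figure D5:**
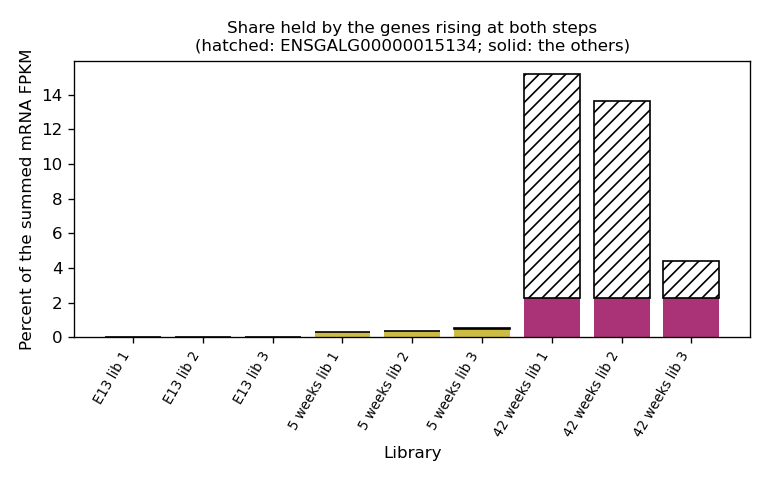
Percent of the summed mRNA FPKM held by the 55 genes in each library, with ENSGALG00000015134 hatched and the other 54 genes solid. The solid part reaches 2.26% to 2.28% in all 3 libraries of 42 weeks, and the hatched part is far smaller in the third.

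The thresholds cut through a continuous range of values. ENSGALG00000002165 had a first step of 1.01 and was the last gene inside that threshold, while ENSGALG00000012456, at 0.99, was the first outside among genes with a sufficient second step. At the second threshold ENSGALG00000028982, at 1.02, was the last inside and ENSGALG00000008601, at 0.999, the first outside. A smaller step under 1.1 was found for 11 of the 55, and 11 further genes would have joined with both thresholds at 0.9. The number of genes that meet the rule depends on the scale as well. Once libraries were brought to a common median, 101 genes met the rule, and with quantile normalization 94, in both cases with all of the 55.

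Of the long non-coding RNAs of the same libraries, which the rule did not cover, 2 of the 2213 that reached 0.5 FPKM in at least 3 libraries met the same 2 thresholds, or 0.0904%. TU11915 had 0.151, 0.0758 and 0.172 FPKM at day 13, 3.32, 2.19 and 2.27 FPKM at 5 weeks and 9.90, 15.04 and 23.1 FPKM at 42 weeks. TU52711 had 0.233, 0.141 and 0.181 FPKM, then 4.45, 7.49 and 7.44 FPKM, and at last 16.9, 21.3 and 6.95 FPKM. In TU52711 the third 42-week library lay among those of 5 weeks, and its second step was 1.01. The share of protein-coding genes that met the rule, 0.478%, was counted over a table with higher FPKM and another filter, and the shares were not compared by a test.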

How the data were processed

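Liver RNA of 9 libraries, 3 per age, was measured by RNA sequencing. Per the labels' protocols, RNA was extracted with TRIzol and made into libraries with an Illumina TruSeq kit. The tools named, per the submitters' processing notes, are Cufflinks 2.2.1, DESeq2, HISAT and StringTie 1.3.3, without their roles. Genome build and annotation: not given in the sources used here. For mRNAs and for lncRNAs, the authors deposited log2 values of FPKM. They were read as log2(FPKM + 1), since the smallest back-transformed mRNA value above 0 is 0.100 FPKM; for lncRNAs the offset of 1 was assumed. Of the table's columns 0 were left aside. No counts are given, and the depth is unknown: at most 6 of 30 low genes shared 1 ratio between libraries (within a window of 0.02 on the log2 scale), so no reads were recovered.

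Genes that reached 1 FPKM in 3 or more libraries were fitted with limma 3.58.1 in R 4.3.3, with 1 mean per age and a mean-variance trend, on the deposited log2 scale. The fit was also run on simulated data in which each gene had the same spread at all ages. That run cannot show how the fit behaves where the spread differs between ages, as it does here. Two-sided p-values were adjusted by Benjamini-Hochberg. They set each difference of means against a spread between libraries that is shared over the ages. The labels do not describe the separate birds behind the libraries further. Median scaling, quantile normalization, an offset of 0.1 FPKM, other filters and fits, and leaving out each library were tried. Genes and lists were chosen with earlier results of these data known. Gene lists and promoter motifs, fixed by symbol, could not be used without names, and no sequence is shown. The naming rule took the first 2 genes by the smaller step.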

Additional observations from a re-analysis of the deposited data

How the results depend on the processing

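The 55 genes numbered 101 after median scaling, 94 after quantile normalization and 93 with an offset of 0.1 FPKM, each time with all of the 55 among them. Without a filter the number was 55 and with 5 FPKM it was 53. Leaving out 1 library gave 49 to 65 genes, of which 45 (without the third 42-week library) to 55 were among the original ones. The median first step of the 55 was 2.16 after median scaling, 2.02 after quantile normalization and 2.91 with the offset of 0.1 FPKM, and 1.66 to 1.83 without single libraries. The median second step was 1.74 after quantile normalization, and 1.498 to 1.62 without single libraries. By construction, median scaling shifts all genes of a library by the same amount, and the smaller offset stretches low values. The shift after quantile normalization was not split into parts. By limma's adjusted p with its fold threshold, 44 to 55 of the 55 were called at the first step and 39 to 49 at the second without single libraries. In these fits 728 to 831 of all genes were called at the first step and 423 to 575 at the second. Among all genes, calls of a higher value at 5 weeks were 1499 after median scaling, 1255 after quantile normalization and 1401 with the adjusted p alone, against 822. Calls at 42 weeks were 781 with the offset and 1180 with the adjusted p alone, against 497. With the replicate number as a block, 54 and 50 of the 55 were called, and 830 and 499 of all genes. Deviations of same-numbered libraries correlated at -0.0499 to 0.145, and a library correlated best with its own number in 6 of 18 cases. With 3 libraries per age these values cannot settle whether same-numbered libraries are linked. The depth behind single values is unknown, and the 3 libraries per age limit the precision.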
